A study of Mus musculus with 4 samples.

Results

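The forkhead factors of mesenchyme described here are 9 genes, Foxc1, Foxc2, Foxd1, Foxf1, Foxf2, Foxl1, Foxl2, Foxp2 and Foxs1. They were chosen by name from the 54842 genes of the deposited count table, whose Ensembl identifiers were matched to symbols, and all 9 had a row. RNA was sequenced after removal of ribosomal RNA, from MEF cells, which are fibroblasts grown in culture from mouse embryos. The comparison is wt against Top2β-null, with 2 libraries of wild-type and 2 libraries of Top2β-null MEF cells, both untreated and grown in the same medium. It asks how RNA levels differ when Top2β, a DNA topoisomerase that cuts and rejoins both strands of DNA, is missing. The wt and Top2β-null MEF cells came from different sources, and neither the number of embryos or lines nor the origin of the replicates (separate cultures or not) is given. Line and genotype therefore cannot be told apart in these libraries, and the p-values measure the spread between the libraries of each group, which may be technical.

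Forkhead factors are transcription factors that bind DNA through a conserved winged-helix domain, the forkhead domain. In the embryo they are known for laying out the mesenchyme, the loose tissue from which fibroblasts, muscle of the gut wall, cartilage and vessel walls arise, and several of them act in mesenchyme that receives Hedgehog signals from a neighbouring epithelium. Many sit in small clusters of related genes, and paralogues such as Foxc1 and Foxc2, or Foxf1 and Foxf2, share part of their functions.

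The shared domain can be seen in the coding sequence. The 41 bases below are shown because they are the longest stretch that Foxf1 and Foxf2 have in common without a mismatch. For each of the other genes shown, the closest stretch was sought in the same reading frame only. The stretches are read 5′ to 3′ from the coding sequences of GENCODE M21 (GRCm38). Capitals mark the 18 bases that are identical in the 7 genes shown.
Foxf1: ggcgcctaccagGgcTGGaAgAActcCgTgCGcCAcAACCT
Foxf2: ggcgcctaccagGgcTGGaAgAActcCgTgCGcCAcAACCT
Foxc1: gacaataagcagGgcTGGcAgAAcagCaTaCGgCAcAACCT
Foxd1: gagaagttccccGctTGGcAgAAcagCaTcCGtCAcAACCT
Foxl1: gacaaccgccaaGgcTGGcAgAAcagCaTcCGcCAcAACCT
Foxl2: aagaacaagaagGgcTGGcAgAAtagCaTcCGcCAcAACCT
Foxs1: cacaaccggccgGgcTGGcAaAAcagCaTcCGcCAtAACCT
Against Foxf1, the number of differing bases was 0 in Foxf2, 11 in Foxl1, 12 in Foxc1, 14 in Foxl2, 15 in Foxs1 and 16 in Foxd1.

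The 4 libraries held between 133116830 and 149647278 counts. Top2b had 18259 and 18465 normalized counts (counts scaled to a common library size) in wt and 3879 and 3789 in the Top2β-null cells. The targeted gene was thus lower in both libraries labelled Top2β-null, although a gene-level count does not show which exons the remaining reads came from. Top2a, the other Top2 gene, differed by a log2 fold change of 0.070. All 10 fibroblast markers on the list used here had more than 100 normalized counts on average, but their levels were not alike in the groups: Pdgfra, Pdgfrb, Thy1 and Dcn were called higher in the Top2β-null cells, and Col1a1 and Col3a1 lower. The summed level of the 10 markers was 1312236 and 1336217 normalized counts in wt and 893319 and 898226 in Top2β-null. Markers of other cell types were mixed. Epcam, of epithelium, had 0 to 3 counts per library, but Krt8 had 45.4 normalized counts in each wt library and 6.21 and 3.96 in the Top2β-null libraries (not called). Ptprc, of leukocytes, had 2 to 7 counts, whereas Cd68 was called lower, with 1641 and 1688 normalized counts in wt against 302 and 289 in the Top2β-null libraries. Csf1r had 739.8 and 767 in wt against 962 and 978 (not called). Emcn, of endothelium, had 0 or 1 count, whereas Kdr was called higher, with 71.7 and 68.6 in wt against 203 and 205 in the Top2β-null libraries. Tek, of the same list, had 43.4 and 34.8 in wt against 9.32 and 3.96 (log2 fold change -2.54, not called), and Pecam1 and Cdh5 were at -0.50 and -0.16. The part of these markers in the results below was not tested. In bulk RNA, fewer cells of a type and less RNA per cell cannot be told apart.

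Of the 9 genes, 7 passed the filter of 10 counts in at least 2 libraries and were tested. A gene was called when the quasi-likelihood test of edgeR, its p adjusted over all features by Benjamini and Hochberg's method, gave an adjusted p under 0.05 together with a log2 fold change beyond 1 in either direction and more than 100 normalized counts on average. By this rule 4 of the 7 were called, against 10.8% of all 25085 genes tested. All 7 had more than 100 normalized counts on average, as did 17952 of the 26566 features tested (genes and repeat families). The 10.8% is thus also taken over genes that could not be called at any fold change. Foxc1 and Foxf1 were higher in the Top2β-null cells (5.52% of all genes were called higher), and Foxl1 and Foxs1 were lower (5.25% were called lower). Foxc2, Foxd1 and Foxf2 passed the adjusted p but not the fold cut-off. An adjusted p under 0.05 alone was reached by 66.4% of all genes and by 7 of the 7. Likewise the wt and Top2β-null libraries did not overlap for 7 of 7, as for 81.9% of all genes, so neither count sets these genes apart. The median log2 fold change of the 7 was -0.24, beside -0.0058 over all genes.

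**Figure D1:**
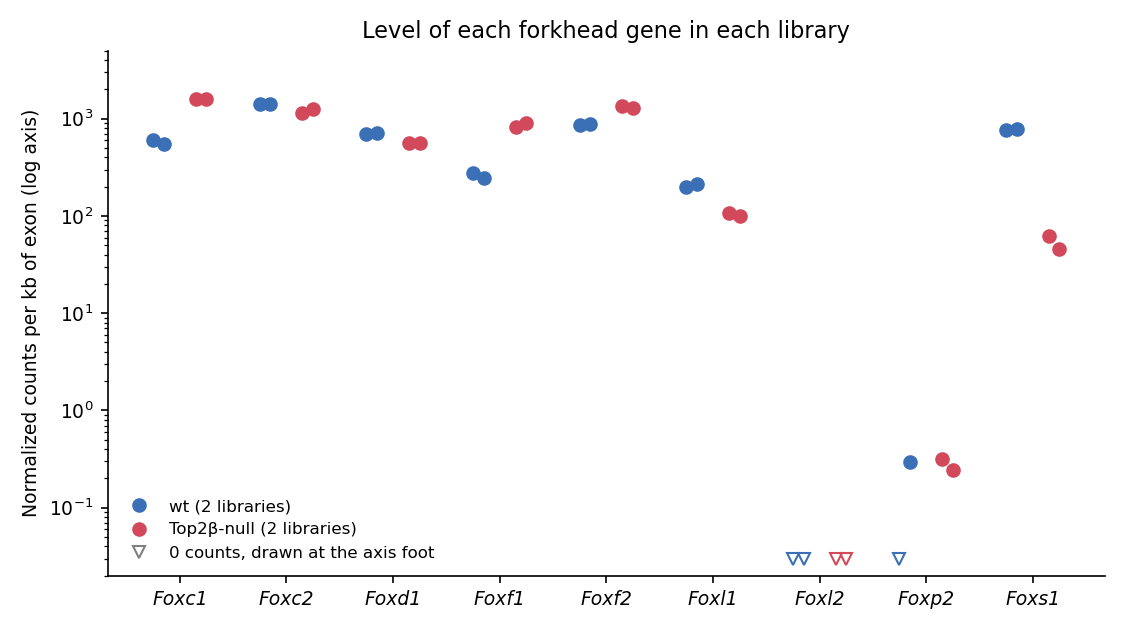
Level of each of the 9 forkhead genes in normalized counts per kb of exon, on a log axis; each point is 1 library, wt in blue and Top2β-null in red, and open triangles at the foot of the axis are libraries with 0 counts. Foxc1 and Foxf1 lie higher and Foxs1 and Foxl1 lower in the Top2β-null libraries, and Foxl2 and Foxp2 lie at or near 0 throughout.

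Foxc1 (ENSMUSG00000050295) encodes a factor of paraxial mesoderm, neural crest and developing vessels, and in humans its loss affects the front of the eye. The gene lies on chromosome 13 at chr13:31806633-31812476 (GRCm38, plus strand) and has 1 exon. Its normalized counts were 3525 and 3232 in wt and 9291 and 9332 in the Top2β-null cells. Both Top2β-null libraries were thus far above both wt libraries, and they differed from each other by less than the wt libraries did. Foxc1 rose 2.76-fold (log2 fold change 1.46, SE 0.0352, edgeR adjusted p = 3.0e-15). It ranked 3802 of 25085 genes by the size of the change.

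Foxc2 (ENSMUSG00000046714), its paralogue, acts with Foxc1 in somites and vessels and is needed for lymphatic valves. It is a gene of 1 exon on chromosome 8, at chr8:121116171-121118895 (plus strand). The normalized counts were 3832 and 3876 in wt and 3131 and 3410.0 in the Top2β-null cells. The groups did not overlap, with a log2 fold change of -0.24 (SE 0.0416, edgeR adjusted p = 1.1e-04), which is short of the fold cut-off and turned to 0.13 when libraries were scaled to Hprt. Within each library, Foxc1 made up 30.01% and 28.0% of the pair's summed level per kb of exon in wt and 58.0% and 56.1% in the Top2β-null cells. This share, which needs no scaling between libraries, was 29.0% ± 1.43 (SD, n = 2) and 57.1% ± 1.40 (SD, n = 2). The order of the 2 paralogues was therefore opposite in the 2 groups, with Foxc2 ahead in both wt libraries and Foxc1 ahead in both Top2β-null libraries. The exact permutation test, two-sided, gave p = 0.33 for the share, which is the smallest p that 2 libraries against 2 can give.

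The coding sequences of the pair are the most alike over a long stretch among these genes after those of Foxf1 and Foxf2, with 85.7% identity over 553 aligned bases. The piece shown holds their longest identical run, because reads that fall entirely inside such a run cannot be assigned to one of the genes. Capitals mark the run of 53 bases.
Foxc1: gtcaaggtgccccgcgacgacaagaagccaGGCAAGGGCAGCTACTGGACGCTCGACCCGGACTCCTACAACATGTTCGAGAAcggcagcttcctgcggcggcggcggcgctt
Foxc2: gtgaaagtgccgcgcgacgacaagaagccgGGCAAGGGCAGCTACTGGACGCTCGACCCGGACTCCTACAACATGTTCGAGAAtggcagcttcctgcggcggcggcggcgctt
The run is shorter than the reads of the study, as is the run of 41 bases that Foxf1 and Foxf2 share, and no other pair of the 9 genes had a run over 32 bases. How the authors' counting assigned reads that align in more than 1 place is not given in the sources used here.

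Foxf1 (ENSMUSG00000042812) encodes a factor of splanchnic mesenchyme, needed for the vessels of the lung and the muscle layer of the gut, and is a known target of Hedgehog signalling. The gene lies on chromosome 8 at chr8:121084386-121088144 (plus strand) with 2 exons. Its normalized counts were 664.1 and 593.1 in wt and 1967 and 2191 in the Top2β-null cells. The lower of the Top2β-null libraries was well above the higher of the wt libraries. Foxf1 rose 3.31-fold (log2 fold change 1.73, SE 0.0673, edgeR adjusted p = 1.4e-12) and ranked 3238 of 25085.

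Foxf2 (ENSMUSG00000038402) acts in mesenchyme of the palate, the gut and the brain's vessel walls. It lies at chr13:31625816-31631403 (plus strand) with 2 exons. It had 2026 and 2088 normalized counts in wt and 3221 and 3011 in the Top2β-null cells. The groups did not overlap, with a log2 fold change of 0.60 (SE 0.0449, edgeR adjusted p = 6.0e-09), short of the fold cut-off. Foxf1 made up 24.3% and 21.7% of the pair's summed level per kb in wt and 37.4% and 41.6% in the Top2β-null cells, or 23.0% ± 1.80 (SD, n = 2) and 39.5% ± 2.96 (SD, n = 2). Foxf2 thus stayed the larger part of this pair in all 4 libraries, unlike in the Foxc pair, where the leading gene differed between the groups. The exact permutation p was again 0.33, the smallest possible. The coding sequences of Foxf1 and Foxf2 have 89.3% identity over 383 aligned bases.

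Foxl1 (ENSMUSG00000097084) marks mesenchymal cells beneath the gut epithelium. It is a gene of 1 exon at chr8:121127940-121130644 (plus strand). Its normalized counts were 542.0 and 581.5 in wt and 286.9 and 269.4 in the Top2β-null cells. The groups did not overlap. Foxl1 was lower with a log2 fold change of -1.02 (SE 0.0843, edgeR adjusted p = 2.2e-08), which is just past the fold cut-off. The call was lost under several other scalings and without wt replicate 2 or Top2β-null replicate 2, where the log2 fold change was -0.96 and -0.97, while the direction and the adjusted p under 0.05 did not change.

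Foxs1 (ENSMUSG00000074676) is known from pericytes, the contractile cells that wrap small vessels, and from the neural crest. It lies on chromosome 2 at chr2:152931898-152933208 (minus strand) with 1 exon. It had 999.2 and 1017 normalized counts in wt and 81.8 and 60.4 in the Top2β-null cells. Both wt libraries were far above both Top2β-null libraries. Foxs1 fell by 3.83 on the log2 scale (SE 0.105, edgeR adjusted p = 1.5e-14), a level 14.2-fold lower, and ranked 1265 of 25085, the highest rank of the 7 genes tested.

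Some markers of pericytes and smooth muscle were also lower. Of the 6 on the list, 5 were tested and 2 were called, Acta2 and Mcam, both lower. The summed level of the 6 was 142027 and 146115 normalized counts in wt and 29010 and 29016 in the Top2β-null cells. Acta2, the actin of smooth muscle and myofibroblasts, made up most of this sum. It had 104063 and 106902 normalized counts in wt and 5256 and 5431 in the Top2β-null cells (log2 fold change -4.30, edgeR adjusted p = 4.7e-21). Mcam had a log2 fold change of -1.98. Des, of muscle filaments, had 88.8 and 139 normalized counts in wt and 2.07 and 0.990 in the Top2β-null cells (log2 fold change -6.12), with a mean under the cut-off, and Cspg4 was at -0.64 and was not called. Rgs5, a marker of pericytes on this list, had only 2 to 4 counts in each library. Myh11, the myosin of mature smooth muscle, had 37.7 to 60.6 normalized counts with a log2 fold change of -0.25 (edgeR adjusted p = 0.45). Of the 4 neural and neural crest markers on the list used here, 3 were tested. Nes was called lower and Tubb3 higher. Their summed level, most of it Nes, was 46534 and 45989 normalized counts in wt and 8952 and 9179 in the Top2β-null cells, and Sox10 was at 37.7 to 39.4 normalized counts in wt and 9.90 to 12.4 in the Top2β-null cells. The part of these markers in the Foxs1 result was not tested.

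Foxd1 (ENSMUSG00000078302) marks the stromal progenitors of the kidney, from which its pericytes descend, and part of the retina. It has 1 exon and lies on chromosome 13 at chr13:98354242-98359305 (plus strand), far from Foxf2 and Foxc1. The normalized counts were 3547 and 3639 in wt and 2883 and 2863 in the Top2β-null cells. The groups did not overlap, with a log2 fold change of -0.32 (SE 0.0375, edgeR adjusted p = 1.3e-06), short of the fold cut-off and 0.046 when libraries were scaled to Hprt.

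Foxp2 (ENSMUSG00000029563), known from neurons and from the epithelium of the lung, spans chr6:14901349-15441977 (plus strand). It had 0 and 5 counts in wt and 5 and 4 in the Top2β-null cells and was not tested. Foxl2 (ENSMUSG00000050397), the factor of granulosa cells in the ovary and of the eyelid, lies at chr9:98955288-98958543 (plus strand). It had 0 counts in each of the 4 libraries, which allows a level of at most 3 counts per library (counting error only). Of 5 gonad markers, 2 were tested and 0 were called (edgeR; Inha reached an adjusted p under 0.05, at a log2 fold change of 0.84, and Amh did not); Cyp19a1 had 0 counts in all libraries. A difference in Foxp2 or Foxl2 within these few counts was not detectable at this depth.

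Divided by exon length, the levels can be put in order. In wt MEF cells the mean normalized counts per kb of exon were 1414 for Foxc2, 870.5 for Foxf2, 769 for Foxs1, 709 for Foxd1, 578 for Foxc1, 260.3 for Foxf1 and 208 for Foxl1. In Top2β-null MEF cells they were 1593 for Foxc1, 1319 for Foxf2, 1200.2 for Foxc2, 861 for Foxf1, 567 for Foxd1, 103 for Foxl1 and 54.2 for Foxs1. Neighbours in either order did not overlap between their libraries, although each rests on 2 libraries. Foxc1 stood behind 4 others in wt and ahead of all in the Top2β-null cells, while Foxs1 was ahead of Foxd1 in wt and the last of the genes tested in the Top2β-null cells.

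The summed level of the 9 genes was 4805 and 4814 normalized counts per kb in wt and 5654 and 5741 in the Top2β-null cells. The means were 4810 ± 6.88 (SD, n = 2) and 5698 ± 61.2 (SD, n = 2), a difference of 888 or a ratio of 1.18, larger than the spread within the groups but at the smallest p the exact permutation test can give, 0.33. The make-up differed more than the sum. Foxc1 held 12.0% of the summed level in wt and 28.0% in the Top2β-null cells, and Foxf1 held 5.41% and 15.1%. Foxs1 held 16.0% and 0.953%, and Foxl1 4.32% and 1.81%. Foxc2 held 29.4% and 21.1%, Foxd1 14.8% and 9.96%, and Foxf2 18.1% and 23.2%.

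**Figure D2:**
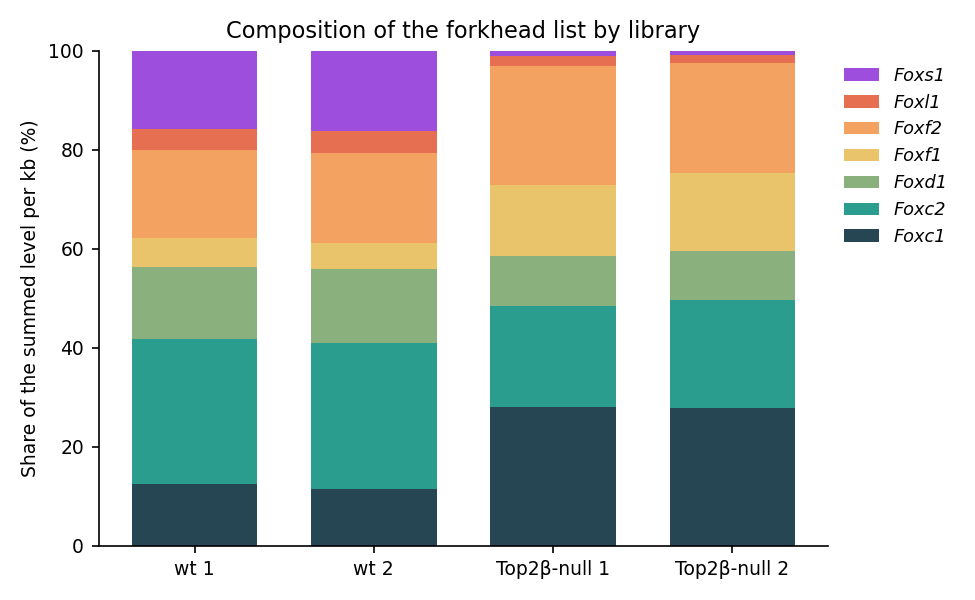
Share of each of the 7 genes tested in the summed level per kb of exon, in percent, stacked from 0 for each library (1 bar per library). The part of Foxc1 is 12.0% on average in wt and 28.0% in Top2β-null, and the part of Foxs1 is 16.0% and 0.953%.

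Most of the genes have a neighbour of the same family. Foxf1, Foxc2 and Foxl1 lie in 1 cluster on chromosome 8, with 31.8 kb between the starts of Foxf1 and Foxc2 and 11.8 kb between those of Foxc2 and Foxl1. Within these 43.6 kb the log2 fold changes were 1.73, -0.24 and -1.02. The gene called higher and the gene called lower are thus at the ends of the cluster, with a gene that was not called between them. Mthfsd, which lies between Foxf1 and Foxc2, had a log2 fold change of 0.30 and was not called. Gm37609, the next tested gene beyond Foxl1, was at -0.83 (edgeR adjusted p = 0.081).

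Fendrr, a long non-coding RNA of lateral mesoderm, starts 1.28 kb from the start of Foxf1 and is read away from it. Its normalized counts were 70.7 and 78.2 in wt and 893.8 and 836 in the Top2β-null cells. Both Top2β-null libraries were far above the wt libraries, and Fendrr rose 11.6-fold (log2 fold change 3.53, SE 0.100, edgeR adjusted p = 2.4e-14). The log2 ratio of Fendrr to Foxf1 counts within a library was -3.08 ± 0.219 in the wt libraries and -1.26 ± 0.178 in the Top2β-null libraries (SD, n = 2 each; exact permutation p = 0.33, the smallest possible). Fendrr was therefore higher relative to Foxf1 in both Top2β-null libraries. Gm27530, an annotated miRNA gene of 98 bases, lies inside an exon of Foxf1 on the opposite strand. It had 30.3 and 41.5 normalized counts in wt and 102.5 and 119 in the Top2β-null cells (log2 fold change 1.62) and did not reach the cut-off on the mean. The strand setting of the authors' counting is not given in the sources used here, so these counts cannot be told apart from reads of Foxf1 itself.

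On chromosome 13, Foxq1, Foxf2 and Foxc1 follow each other on the plus strand, with 69.7 kb between the starts of Foxq1 and Foxf2 and 180.8 kb between those of Foxf2 and Foxc1. Their log2 fold changes were 0.70, 0.60 and 1.46, all above 0, and of these Foxc1 alone was called. Foxq1, a forkhead gene that is not among the 9, had 131.2 and 124.6 normalized counts in wt and 215 and 200.1 in the Top2β-null cells. The long non-coding RNA 1700018A04Rik starts 24 bases from the start of Foxf2 on the opposite strand. It had 167.5 and 179 normalized counts in wt and 485 and 484 in the Top2β-null cells and was called higher (log2 fold change 1.48, SE 0.0950, edgeR adjusted p = 8.2e-10). Each of the genes Foxf1 and Foxf2 thus had a neighbour read away from it that was called higher, at a larger log2 fold change than its own. Gm27516, inside Foxf2 on the opposite strand, had a log2 fold change of 0.60. Gmds, on the far side of Foxc1, was at -0.23 and was not called. Beside Foxd1, Foxl2, Foxp2 and Foxs1, no nearest tested neighbour was called: Gm2445 was at 0.0092 and Gm9828 at -0.25 beside Foxd1, Faim at -0.075 and Gm5920 at 1.23 beside Foxl2, Mdfic at 0.29 and 1110019D14Rik at 0.13 beside Foxp2, and Mylk2 at -0.37 and Dusp15 at -0.50 beside Foxs1.

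**Figure D3:**
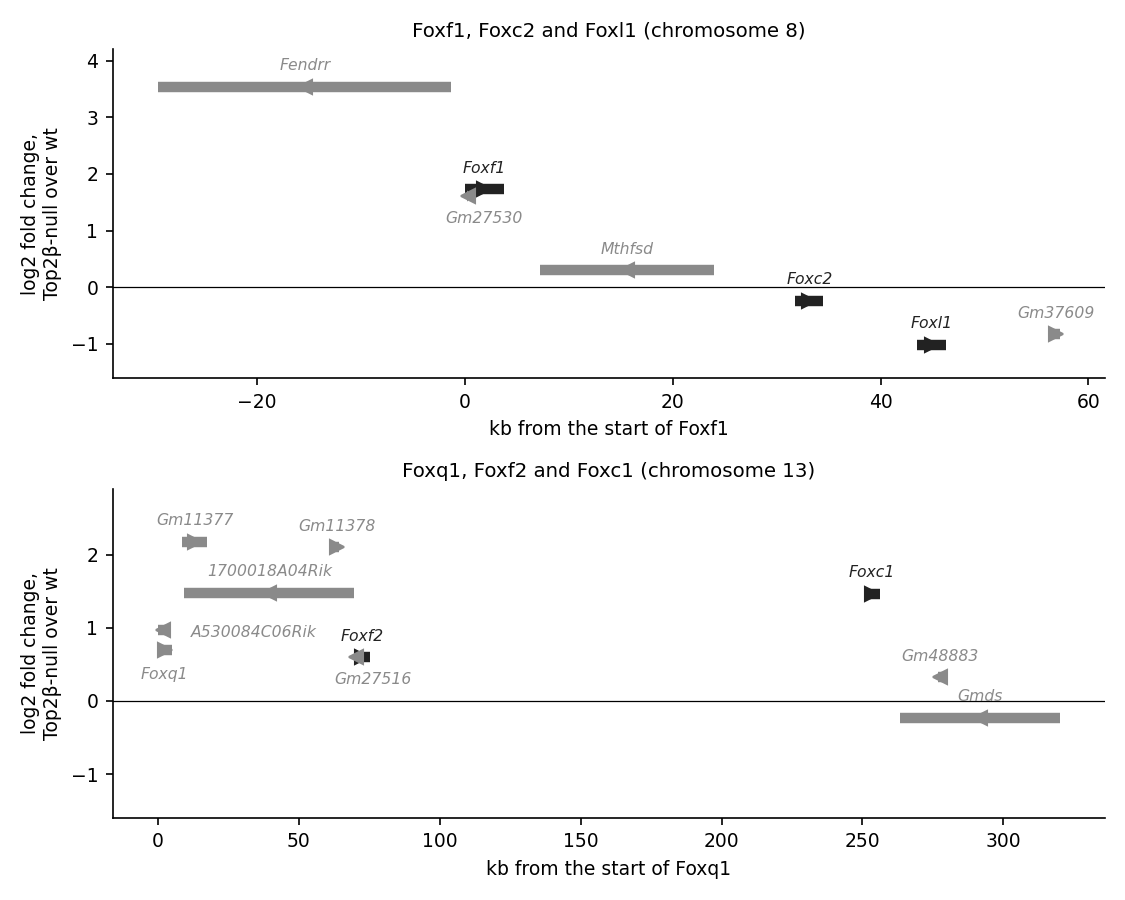
Log2 fold changes, Top2β-null over wt, of the tested genes in the chromosome 8 cluster (upper panel) and the chromosome 13 cluster (lower panel), against distance in kb from the start of Foxf1 or Foxq1; black bars are genes among the 9, grey bars their neighbours, and arrows give the direction of transcription. Foxf1 and Fendrr lie above 0 and Foxl1 below it within 1 cluster, while Foxq1, Foxf2 and Foxc1 all lie above 0; Gm20388, which spans the whole chromosome 8 cluster and shares no exon with these genes, is left out, and Gmds is drawn in part.

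The stretches of 250 bases before the starts of Foxf2 and Foxc1 are shown because these neighbours on chromosome 13 both had log2 fold changes above 0, although Foxc1 alone was called. They come from RefSeq (GRCm38.p6, plus strand), whose promoter table matched 4 of the 9 genes, and run up to the RefSeq start. For Foxc1 that start lies downstream of the GENCODE M21 start given above, so that the last 13 bases of its window are in the M21 exon. Capitals mark GGGCGG, the GC box. The first is chr13:31625566-31625815 and the second chr13:31806396-31806645.
Foxf2: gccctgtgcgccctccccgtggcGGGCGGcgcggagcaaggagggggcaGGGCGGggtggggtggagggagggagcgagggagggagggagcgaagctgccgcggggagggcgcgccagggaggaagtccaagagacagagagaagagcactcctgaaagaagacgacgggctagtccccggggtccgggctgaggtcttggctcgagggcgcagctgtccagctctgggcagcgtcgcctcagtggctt
Foxc1: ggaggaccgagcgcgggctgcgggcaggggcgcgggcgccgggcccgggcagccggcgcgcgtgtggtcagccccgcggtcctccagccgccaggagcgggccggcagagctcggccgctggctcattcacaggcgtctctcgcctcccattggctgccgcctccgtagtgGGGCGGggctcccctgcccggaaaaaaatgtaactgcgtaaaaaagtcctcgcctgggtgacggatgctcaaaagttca
The Foxf2 window has a GC content of 71.6% and 21 CpG dinucleotides, and the Foxc1 window 70.8% and 29, beside medians of 52.4% and 6 over 32851 mouse promoters of the same length. Foxd1, which was lower in the Top2β-null cells though not called (0.046 when scaled to Hprt), had 57.2% and 12. Foxl2, with 0 counts in all libraries, had 70.8% and 22, in the range of the windows printed; its window lies wholly inside the M21 exon. A GC box on either strand was found in all 4 windows and in 32.7% of all promoters. It starts 227 and 201 bases before the RefSeq start of Foxf2 and 79 bases before that of Foxc1, and Foxl2 also has 2. TGTTTAC, a core of forkhead binding sites, is on neither strand of these windows, and 3.17% of all promoters hold it. TGGGTGGTC, the letters bound by the GLI factors of the Hedgehog pathway, is likewise on neither strand, and 0.225% of all promoters hold it. Of the 250 bases before Foxf2, 227 lie in an exon of 1700018A04Rik on the opposite strand.

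Of 34 other forkhead genes analysed here, 21 were tested and 3 were called, Foxa1 and Foxp1 higher and Foxo6 lower. Of all genes tested 10.8% were called, and 3 of 21 is near that share. The median log2 fold change of the 21 was 0.037. Foxa1, a pioneer factor of endoderm, had 7.07 and 1.93 normalized counts in wt and 249.6 and 235.7 in the Top2β-null cells (log2 fold change 5.73, edgeR adjusted p = 4.1e-11). Foxa2, its relative, had 0 counts in both wt libraries and 111.9 and 132.7 normalized counts in the Top2β-null cells, at least 41.3-fold higher (against 3 counts per library), and its mean over the 4 libraries was under the cut-off. Neither Foxa gene is usually counted among factors of fibroblasts. Foxp1 had 15876 and 16211 normalized counts in wt and 34005 and 34117 in the Top2β-null cells (log2 fold change 1.09). Foxo6 had 299.8 and 296.5 in wt and 21.7 and 19.8 in the Top2β-null cells (log2 fold change -3.84). Foxn1, of thymus epithelium and skin, had 39.4 and 36.7 in wt and 5.18 and 1.98 in the Top2β-null cells (log2 fold change -3.38, edgeR adjusted p = 1.1e-05) and was under the cut-off on the mean.

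The remaining forkhead genes analysed with a mean over 100 normalized counts were not called. Foxm1, a factor of dividing cells, was at a log2 fold change of 0.68, Foxj2 at 0.55, Foxk1 at 0.37, Foxk2 at 0.35, Foxp4 at 0.037 and Foxj3 at -0.016. The FoxO genes Foxo3, Foxo1 and Foxo4, which respond to insulin signalling, were at -0.085, -0.12 and -0.45. Foxd2 was at -0.20, Foxn3 at -0.24, Foxn2 at -0.28 and Foxp3 at -0.30. Outside these, 8 forkhead genes had 0 counts in every library.

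By the Euclidean distance between log2 values (after adding 1 normalized count, centred per gene over the 4 libraries), the forkhead gene outside the 9 nearest to Foxs1 was Foxo6, at 0.22. The nearest to Foxc1 and to Foxf1 was Foxp1, at 0.39 and 0.66, and the nearest to Foxl1 was Foxo4, at 0.57. The genes that were not called had closer matches, Foxc2 with Foxn3 at 0.070, Foxd1 with Foxn2 at 0.075 and Foxf2 with Foxj1, a gene of 14.1 to 21.8 normalized counts, at 0.075. Each is the closest of 21 candidates, and the distance describes these 4 libraries only.

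**Figure D4:**
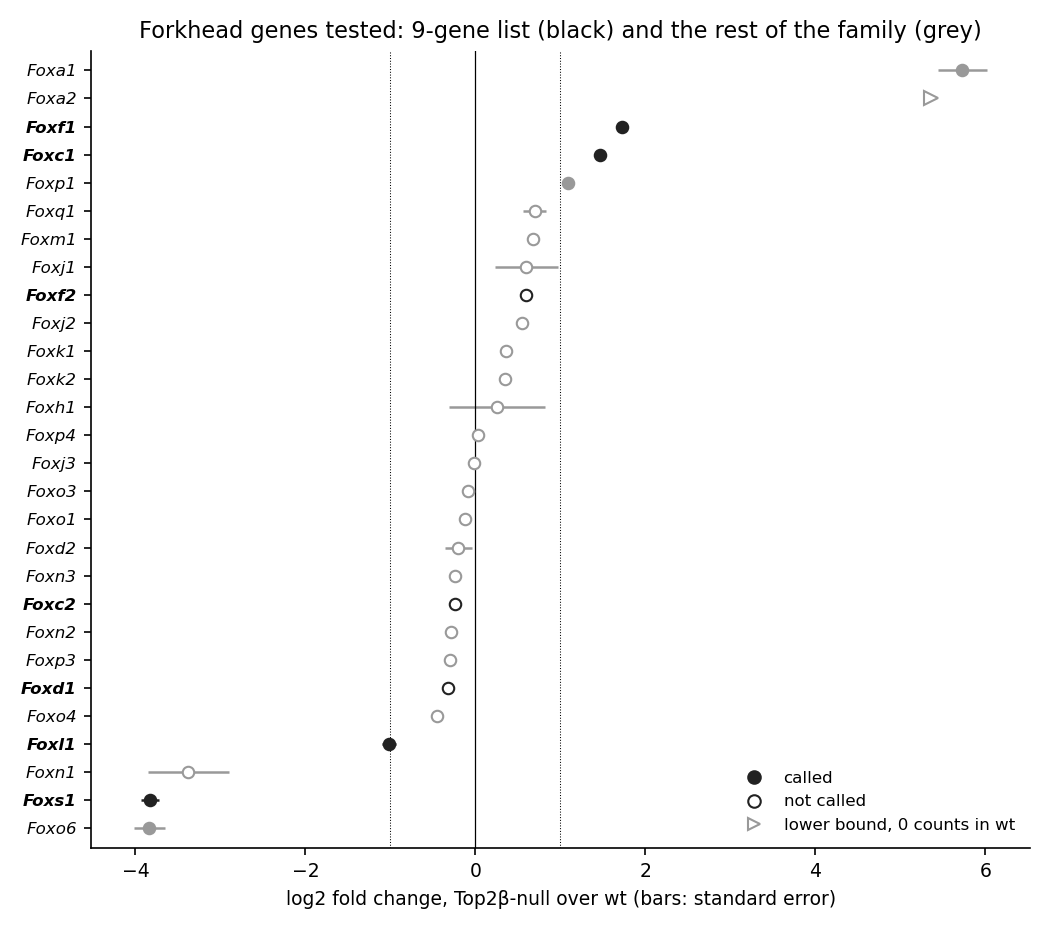
Log2 fold changes, Top2β-null over wt, of the forkhead genes analysed here that were tested, with the standard error as bars; black symbols are genes among the 9, grey symbols other forkhead genes, filled symbols are called and dotted lines mark the fold cut-off of 1. The triangle for Foxa2 is a lower bound (41.3-fold) because both wt libraries were at 0; Foxo6, Foxs1 and Foxn1 lie at the low end, and Foxf1 and Foxc1 lie above the rest of the family except Foxa1 and Foxa2.

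Hedgehog signalling, in which the receptor Ptch1 holds back Smo, and Gli1, Gli2 and Gli3 are the transcription factors at its end, is known to act upstream of Foxf1, Foxf2 and Foxl1 in mesenchyme. Of 15 genes of this pathway, 12 were tested and 4 were called, 3 higher and 1 lower. Of all genes tested, 10.8% were called, 5.52% higher and 5.25% lower. The median log2 fold change of the 12 was 0.24, beside -0.0058 over all genes. Hhip, which binds the ligands, had 10.1 and 8.69 normalized counts in wt and 583 and 622 in the Top2β-null cells (log2 fold change 5.99, edgeR adjusted p = 2.0e-14). Gli2 had 222.0 and 230.8 in wt and 2597 and 2719 in the Top2β-null cells (log2 fold change 3.55). Smo was also called higher, at 1.19, and the co-receptor Boc was called lower, at -1.25.

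Gli1 and Ptch1, 2 of the genes often read as a measure of the pathway's activity, were not called. Gli1 had 380.5 and 380.6 normalized counts in wt and 408 and 428 in the Top2β-null cells (log2 fold change 0.14, edgeR adjusted p = 0.16). Ptch1 had 4936 and 5164 in wt and 5021 and 4997 in the Top2β-null cells (log2 fold change -0.012, edgeR adjusted p = 0.76), so its groups overlapped. Gli3 was at 0.60 and was not called, and the ligand Shh had 0 counts in all 4 libraries. Whether the genes of the pathway that were called higher have a part in the levels of Foxf1 was not tested.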

How the data were processed

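RNA of 2 wt and 2 Top2β-null libraries was analysed from 1 table of whole-number counts, which the authors deposited without normalization. They trimmed paired-end reads with Trim Galore!, mapped them to mm10 (GRCm38) with STAR, retaining multi-mapping reads, and ran TEtranscripts with Gencode genes and repeats; mode and strand setting are not given in the sources used here. Groups came from the sample labels. Of 54842 genes, 54409 matched GENCODE M21, the source of symbols, positions, exon lengths and coding sequences; levels per kb use merged M21 exons, not the authors' annotation.

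Features reaching 10 counts in 2 or more libraries (25085 genes, 1481 repeat families) were fitted with genotype as the only term in edgeR 4.0.16 (R 4.3.3, limma 3.58.1), with TMM factors over genes and repeats, the quasi-likelihood test and Benjamini-Hochberg adjustment over all 26566 features. The call thresholds (adjusted p 0.05, log2 fold change 1, mean of 100) are those in the study's methods, which used DESeq2; DESeq2 1.42.0 was run here as an alternative. Normalized counts are scaled to the geometric mean effective library size, SE is the log2 fold change over the root of F, and shares were compared by exact permutation (two-sided). Coding sequences were aligned with Biopython 1.88. No replicate pair was 1 library deposited again (chi-square over its degrees of freedom 3.65 for wt, 5.07 for Top2β-null). The fits were also run on simulated data with few features changed and a fixed spread. These settings differ from the data, so that run is no test of the calls reported here. Other alternatives were further scalings, filters, the replicate block and leaving out each library.

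The genes and lists (other forkhead, Hedgehog, fibroblast, epithelium, endothelium, pericyte and smooth muscle, leukocyte, neural and neural crest, gonad) were chosen with earlier results of these data known. Named are the 9 genes, other forkhead genes called or with a mean over 100, neighbours (nearest tested on each side, overlapping, or starting within 5 kb), the other forkhead gene nearest by distance to each called gene and called Hedgehog genes. Foxa2, Foxn1, Foxj1, Gli1, Ptch1, Gli3, Shh and the chromosome 13 genes in the map were named after their values were seen, as were the individual markers. Of 4 endothelium markers tested Kdr alone was called (higher), and by adjusted p alone 1 was higher and 1, Tek, lower. Of 3 leukocyte markers tested Cd68 alone was called (lower), and by adjusted p alone 2 were higher, Csf1r and Itgam (1 count in each wt library, 27 and 29 in Top2β-null), and 1 lower. Of 2 epithelium markers tested by edgeR 0 were called, although both had an adjusted p under 0.05, lower. Some genes and sequences of these lists are not reported here and were left out of the list counts.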

Additional observations from a re-analysis of the deposited data

How the results depend on the processing

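Of 76 alternative log2 fold changes of the 7 genes tested, 68 kept the direction and the call (42 of 48 with all libraries and 26 of 28 with 1 library left out). Foxl1 lost its call with TMM over genes alone (-0.996), total counts (-0.95), scaling to Hprt (-0.65) and no filter (-0.998), and ran from -1.06 to -0.96 when libraries were left out, so that the number called lower was 1 in these cases (1 to 2 with a library left out); the cause was not tested. The number was also 1 with at least 100 counts in every library, where Foxs1 could not be fitted, and 4 with the adjusted p alone. Scaling to Hprt, itself at a log2 fold change of -0.37, moved the median of all genes to 0.36 and turned Foxc2 to 0.13 and Foxd1 to 0.046. Under all settings run, Foxc1 stayed between 1.40 and 1.83 and Foxf1 between 1.65 and 2.10, and Foxs1 between -4.04 and -3.46 where fitted. The number called higher stayed at 2 except with the adjusted p alone, where it was 3. The difference in summed level was 1143 with total counts, against 888. Genes called numbered 2702, 16663 with the adjusted p alone and 1740 when each library had to reach 100 counts. In a fit with the replicate block, 2 genes were called higher and 2 lower, with Foxl1 at -1.01; deviations of same-numbered libraries correlated at 0.021, so the numbers were not taken as pairs, and the block moved the number of genes called to 2704. Without a library the lone sample of its group is assumed to vary like the other group. Depth limits Foxl2 and Foxp2. With 2 libraries a group, no exact permutation p can pass 0.05.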
